A study of Mus musculus with 10 samples.

Results

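Intergenic sites of estrogen receptor α (ERα) within reach of genes were examined here, that is, regions bound in the mouse hypothalamus that lie outside genes but no more than 50 kb from a start site of transcription. Peaks of 8 ERα ChIP-seq lists that shared at least 1 bp were merged, and the 4722 regions with peaks in at least 2 of the 8 lists were kept. A region was counted when its centre lay outside every RefSeq transcript of mm10, outside the 1 kb upstream of its start and the first 1 kb past its end, with the nearest start site at most 50 kb away. This gave 783 sites, or 16.6% of the 4722 regions. They were chosen by the peak calls and by position, so that the number of lists and the distance to a start site are descriptions and not results. The other regions lay in introns (1555), promoters (1456), exons (388), transcript ends (75) and intergenic stretches farther than 50 kb from any start site (465).

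ChIP-seq recovers the DNA bound by a protein with an antibody, here sc-543 against ERα, and sequences it. All libraries came from dissected tissue of female C57BL/6 mice that were ovariectomised, carried a 2 cm implant of 17β-estradiol (0.1 mg/mL in sesame oil) and, a week later, were injected with estradiol benzoate at 0.05 mg/kg, with tissue taken 28 h after the injection. There were 4 libraries of the arcuate nucleus and 4 of the anteroventral periventricular nucleus (AVPV), and none from vehicle-injected animals was analysed here. Mice were typically 8 to 12 weeks old when killed. The chromatin was pooled, and the sources used here do not give whether each library had a pool of its own, so that errors and p-values measure the spread between libraries, which may be technical. A nucleus contains cells with and without ERα, and a weaker peak and fewer cells with the receptor cannot be told apart. The lists held 2367 to 4079 peaks, the longest in arcuate libraries 1 and 2. Read depth cannot be read from the lists, so a site without a peak is a site without a call and not one shown to be unbound.

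ERα is a nuclear receptor that estradiol activates. It binds DNA as a dimer at the estrogen response element, a palindrome of the half-site AGGTCA and its reverse complement separated by 3 bases, or reaches DNA through other bound proteins. In breast and uterus most of its binding lies away from promoters, at enhancers, which act on genes at a distance and need not act on the nearest one. In the hypothalamus the arcuate nucleus is known for negative feedback of estrogen and for neurons that control feeding, and the AVPV for positive feedback before ovulation. The gene named beside a site is the one with the nearest start site, as an address only.

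From the 10 strongest sites shared by all libraries, 6 with an element are shown first, so that the form of the element at such sites can be read. Each sequence is the plus strand of mm10 (from the RefSeq assembly GRCm38.p6), centred on the palindrome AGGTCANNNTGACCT, whose best match within 100 bp of the summit is in capitals. Mismatches are written with the base of the palindrome, its position from 1 at the 5′ end, and the base of the site.
Site near Gm33243 (chr6:100060037-100060097): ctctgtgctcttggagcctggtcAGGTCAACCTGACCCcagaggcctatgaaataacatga
Site near Alox5ap (chr5:149259210-149259270): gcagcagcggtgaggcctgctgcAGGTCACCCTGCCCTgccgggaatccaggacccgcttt
Site near Gm30746 (chr5:118458825-118458885): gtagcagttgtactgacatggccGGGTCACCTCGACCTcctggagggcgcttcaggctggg
Site near Gm30445 (chr16:44717008-44717068): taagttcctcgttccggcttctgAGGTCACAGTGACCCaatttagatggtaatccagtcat
Site near Tmem144 (chr3:79808850-79808910): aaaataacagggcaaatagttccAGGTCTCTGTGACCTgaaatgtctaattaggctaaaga
Site near Gm41913 (chr1:89350891-89350951): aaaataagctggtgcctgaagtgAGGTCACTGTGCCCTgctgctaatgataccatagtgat
The site near Gm33243 had the single mismatch T15C, as did that near Gm30445. The sites near Alox5ap and Gm41913 shared A12C, the one near Tmem144 had A6T, and the one near Gm30746 had A1G and T10C. Also among these strongest sites were those near Gm32237 (T4G and A12C) and Banf2os (C5T and A12T). Their elements, each with 2 mismatches, are not printed.

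The next set is of sites with an element where calls or ranks differed between the nuclei, though none passed after adjustment. High-ranked sites of these kinds without an element, near Phactr1, Gm52637 and Gm36109, are not printed. The first 3 had a peak in every arcuate library and no AVPV library, the following 3 in every AVPV library and no arcuate library, and the last 3 had peaks in all 8 libraries with every arcuate percentile above every AVPV percentile.
Arcuate site near Gm42015 (chr5:118812987-118813047): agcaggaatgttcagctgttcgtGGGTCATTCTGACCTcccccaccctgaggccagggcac
Arcuate site near Slc15a4 (chr5:127585174-127585234): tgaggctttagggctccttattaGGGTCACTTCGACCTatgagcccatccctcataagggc
Arcuate site near Gm20611 (chr10:61020104-61020164): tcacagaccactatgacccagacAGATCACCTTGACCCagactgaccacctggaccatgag
AVPV site near Nts (chr10:102455968-102456028): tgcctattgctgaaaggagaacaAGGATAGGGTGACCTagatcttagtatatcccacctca
AVPV site near Gm34576 (chr3:65435568-65435628): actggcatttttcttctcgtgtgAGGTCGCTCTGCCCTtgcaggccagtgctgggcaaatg
AVPV site near 1700021F07Rik (chr2:173545582-173545642): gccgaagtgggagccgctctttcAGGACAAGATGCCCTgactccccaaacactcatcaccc
Site near Hdac11, higher in the arcuate (chr6:91146615-91146675): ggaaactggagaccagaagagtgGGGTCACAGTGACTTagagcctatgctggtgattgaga
Site near Gm33926, higher in the arcuate (chr7:67462249-67462309): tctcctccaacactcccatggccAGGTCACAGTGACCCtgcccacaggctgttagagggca
Site near Cdh12, higher in the arcuate (chr15:20422290-20422350): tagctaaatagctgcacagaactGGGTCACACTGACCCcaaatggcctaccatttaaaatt
The arcuate sites near Gm42015 and Slc15a4 differed from the palindrome by A1G and by A1G with T10C, so that each began with the half-site GGGTCA. The AVPV site near Nts had T4A and C5T on its left side and a perfect TGACCT on its right. The sites near Cdh12 (A1G and T15C) and Gm33926 (T15C) changed the outermost base of a half-site, and that near Hdac11 had A1G and C14T.

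An element matching at least all but 2 of its 12 fixed bases lay no farther than 100 bp from the summit at 406 of the 783 sites (51.9%, 95% Wilson interval 48.4 to 55.3, counting error only). Windows of the same length moved 5 kb to either side held a match in 1.28% and 1.15%. Without any mismatch the element was found at 44 sites (5.62%), and with 0 or 1 at 186 (23.8%). Among the 142 sites whose best match had 1 mismatch, 55 (38.7%) differed at the outermost base (base 1) of a half-site, 32 (22.5%) at base 4 and 27 (19%) at base 2, while bases 3 and 6 differed at 8 and 7. The most frequent substitutions, T15C at 22 sites and A1G at 17, are mirror images of each other in the palindrome. The elements lay close to the summits: 211 of 406 (52%) were centred within 25 bp, 335 (82.5%) within 50 bp, and the median distance was 24 bp.

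**Figure D1:**
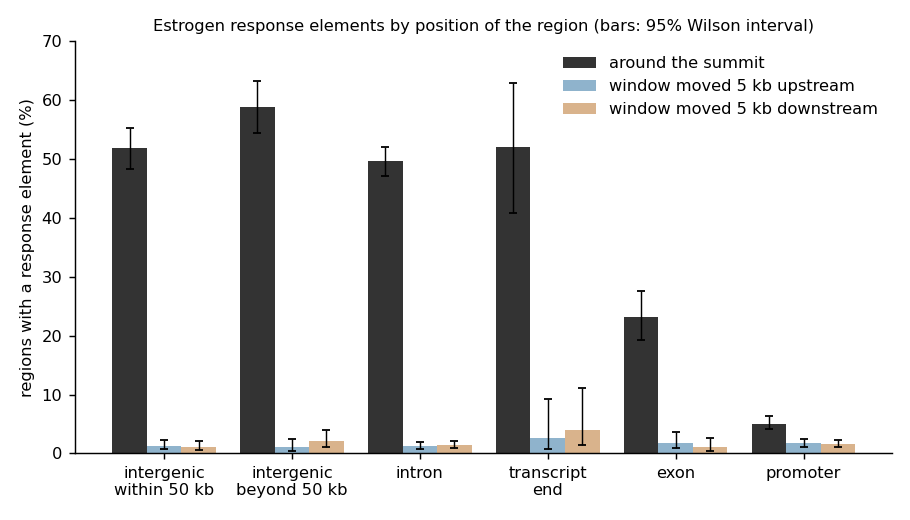
Percent of regions with a response element, allowing 2 mismatches and 100 bp from the summit, by the position of the region, and in the same windows moved 5 kb upstream or downstream. Error bars are 95% Wilson intervals. Intergenic sites within 50 kb stood at 51.9%, near introns at 49.6%, below farther intergenic regions at 58.9% and above promoters at 5.08%.

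Intergenic sites near genes held elements more often than promoter regions, by 46.8 percentage points (51.9% against 5.08%; Fisher's exact test, two-sided, adjusted p = 3.14e-144 over 3 comparisons). Against intronic regions (49.6%) the difference was 2.27 points and did not pass the threshold (Fisher's exact test, adjusted p = 0.314). Against intergenic regions beyond 50 kb (58.9%) it was -7.07 points (Fisher's exact test, adjusted p = 0.024). These tests treat regions as independent. The last difference was -5.43 points without 24 repeat-associated sites in 2 genomic clusters (Fisher's exact test, adjusted p = 0.0841), and the sign against introns turned when only curated transcripts were used (-2.28 points, adjusted p = 0.334).

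The share with an element also varied with the number of libraries, without a test. It was 46.1% at the 204 sites of 2 lists and 41.4% at the 162 of 3 lists, and 71.1% at the 45 of 7 lists and 62.6% at the 115 of 8 lists. Peaks with an element ranked higher, also without a test. Strength was set as the percentile of a peak's fold enrichment among all peaks of its list, because backgrounds differ between lists. The median percentile of sites with an element exceeded that of sites without one by 15.6 ± 4.49 points (SD, n = 8), in 8 of 8 libraries, from 10.2 to 24.7 points. By the number of mismatches, 12 of 44 sites with a perfect element (27.3%) had peaks in all 8 lists, against 25 of 193 (13%) with a best match of 3 mismatches and 11 of 117 (9.4%) with 4.

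Other short motifs were counted in the same windows on both strands. A perfect half-site AGGTCA was present at 53.5% of the sites, against 10.6% and 11.5% in the moved windows, 10.5% at promoter regions and 37.8% of all 4722 regions. It was about as frequent at intronic regions (51.5%) and farther intergenic regions (56.8%), so it is not particular to these sites. Of sites without an element, 30% held a half-site, and of the 43 such sites with peaks in 8 lists 16 did (37.2%), whereas 264 of all 783 sites had neither. The extended half-site AAGGTCA, which overlaps the half-site, was found at 17.8% (3.96% and 3.58% in moved windows, 12.2% of all regions). An AP-1 site, TGANTCA, was found at 9.83% (5.36% and 6.77% in moved windows, 6.48% of all regions), and the E-box CAGCTG at 14% (8.81% and 9.71%, 13% of all regions). Intronic regions held AAGGTCA at 17%, the AP-1 site at 7.91% and the E-box at 14.8%. Farther intergenic regions held them at 20.9%, 10.5% and 12.9%. The homeobox core TAATTA at 4.09% (6.9% and 5.49%, 3.13% of all regions), the forkhead core TGTTTAC at 2.04% (3.19% and 2.3%, 2.24%) and the nuclear factor I core TTGGCA at 10.7% (10.3% and 10.1%, 9.23%) were near or below their levels in moved windows. The promoter motifs GGGCGG and CCGGAAG, at 41.8% and 31.6% of promoter regions, were at 5.11% and 1.28% of the intergenic sites (18.3% and 12.4% of all regions). GC content was 47.8% in the median window of the sites and 62.7% at promoter regions.

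The sites lay a median of 16.1 kb from the nearest start site, with 102 between 1 and 5 kb, 145 from 5 to 10 kb, 222 from 10 to 20 kb and 71 from 40 to 50 kb. Upstream of that start lay 484 (61.8%), with a median of 13 kb, and downstream 299 (38.2%), with a median of 22.3 kb, where positions inside transcripts had been removed by the definition. The share with an element was 43.1% from 1 to 5 kb (95% Wilson interval 33.9 to 52.8) and 56.3% from 40 to 50 kb (44.8 to 67.3), intervals that overlap. The nearest start was that of a protein-coding transcript at 262 sites (33.5%), and 423 sites (54%) had a coding start within 50 kb. Counting non-coding transcripts of protein-coding genes as well, such a gene was nearest at 274 sites. The remaining nearest starts were of genes not annotated as protein-coding. At the limits of the definition, the farthest site inside lay 49.7 kb from Gm4419 with peaks in 3 lists and the nearest region outside 50.1 kb from Gm4719 with peaks in 2, while the closest site lay 1016 bp from Gm31988, with peaks in 3 lists. Regions of the same position in only 1 list numbered 521 with a median percentile of 21.6, and the 204 sites in 2 lists had a median of 39.4 for the higher of their peaks.

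**Figure D2:**
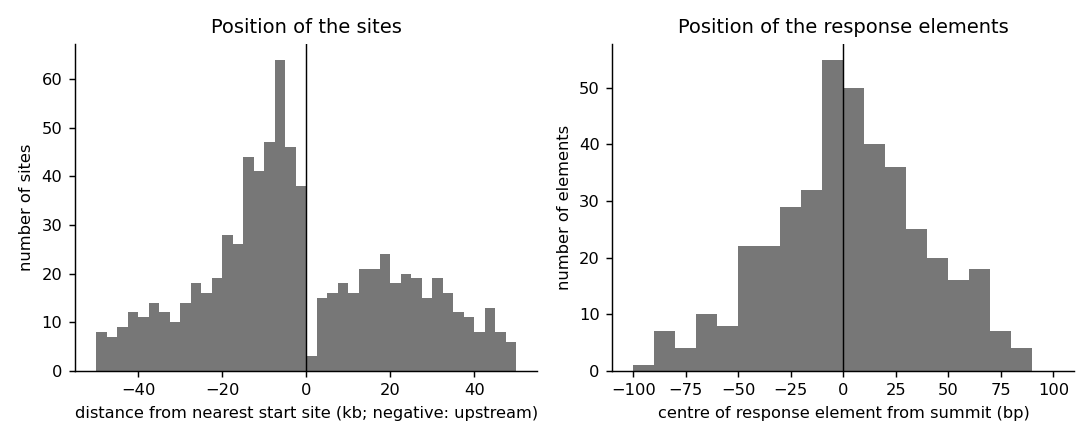
Left, number of sites by distance of their centre from the nearest start site in kb (negative values upstream), in bins of equal width. Right, number of response elements by distance of their centre from the peak summit in bp. Sites were most frequent a few kb upstream of a start, and 335 of the 406 elements were within 50 bp of the summit.

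In 115 sites (14.7%) all 8 libraries had a peak, beside 1089 of all 4722 regions (23.1%), 17.1% of intronic, 15.5% of farther intergenic and 35.6% of promoter regions. Of the 743 sites called in a nucleus, that is, in 2 or more of its 4 libraries, 341 (45.9%) were called in the arcuate only, 140 (18.8%) in the AVPV only and 262 (35.3%) in both. Over all regions called in a nucleus, 34.6% were arcuate only and 16.6% AVPV only. Intronic regions stood at 42.4% and 17.9%, and farther intergenic regions at 34% and 24.2%. Beside the latter, the sites were more often arcuate only and less often AVPV only, without a test. The remaining 40 sites had a peak in 1 library of each nucleus. An element was present at 60.7% of sites of both nuclei (95% Wilson interval 54.7 to 66.4), 51% of arcuate-only sites (45.7 to 56.3) and 40.7% of AVPV-only sites (32.9 to 49).

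**Figure D3:**
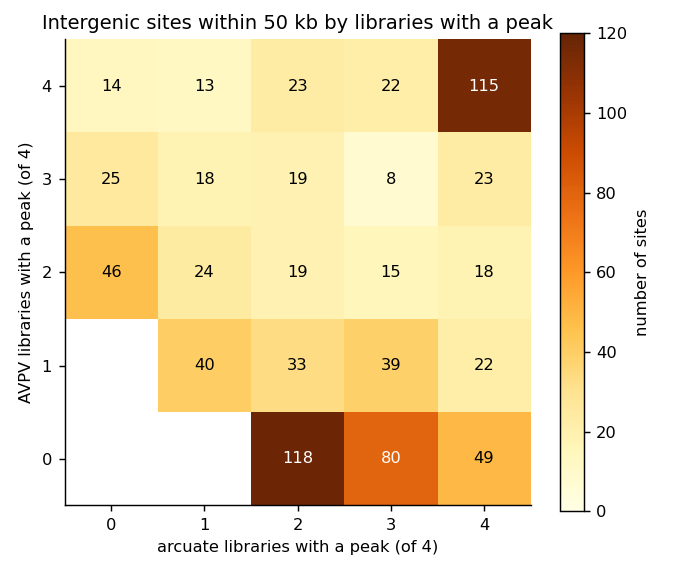
Number of the 783 sites by how many arcuate libraries (horizontal axis) and AVPV libraries (vertical axis) had a peak. The corner with all 8 libraries holds 115 sites, the one with 4 arcuate and 0 AVPV libraries 49 and its mirror 14, and the cell with 2 arcuate and 0 AVPV libraries 118.

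Sites of a single nucleus were more frequent near genes between transcripts (64.7%) than in introns (60.4%), by 4.38 percentage points, and than in farther intergenic regions (58.2%), by 6.52 points (Fisher's exact test, two-sided, adjusted p = 0.0465 for each over 2 comparisons). The test treats regions as independent, though all calls came from the same 8 libraries, so it does not measure the spread between libraries. By the same exact test, both calls were lost with curated transcripts only (3.63 points, adjusted p = 0.243, and 1.67 points, adjusted p = 0.546) and without AVPV library 1 (adjusted p = 0.0787 and 0.0605), and the first also without AVPV library 3 (adjusted p = 0.0550). Between pairs of libraries, the sites with a peak in both made up 0.558 of those with a peak in either within the arcuate (6 pairs, 0.450 to 0.729), 0.566 within the AVPV (6 pairs, 0.493 to 0.604) and 0.360 between the nuclei (16 pairs, 0.294 to 0.432).

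Arcuate libraries 1 to 4 had peaks at 571, 537, 460 and 351 of the sites, and AVPV libraries 1 to 4 at 292, 309, 380 and 424. The ranges overlapped, and the means of 480 ± 97.6 and 351 ± 61.7 (SD, n = 4 each) did not differ beyond the spread (exact two-sided permutation test, p = 0.0857, 0.114 after adjustment over 4 measures). As a share of each library's regions the sites made up 15.6% ± 1.29 in the arcuate and 13.8% ± 1.18 in the AVPV (SD, n = 4 each; exact permutation test, p = 0.0571, adjusted p = 0.114). Their median percentile of fold enrichment was 57.1, 54.2, 49.2 and 54.9 in arcuate libraries 1 to 4 and 42.2, 47.4, 48.4 and 49.3 in AVPV libraries 1 to 4. That difference of 7 points (53.8 ± 3.36 against 46.8 ± 3.17, SD, n = 4 each) had p = 0.0571 (exact permutation test, adjusted p = 0.114). It was 8.65 points with exact permutation p = 0.0286, the smallest that 4 against 4 libraries allow, without the 24 repeat-associated sites, and did not pass after adjustment (adjusted p = 0.114). A single measure at that smallest value cannot pass after adjustment over 4 measures. Without arcuate library 2, 3 or 4 it was 9.44, 10.1 and 7.32 points, each with exact permutation p = 0.0286 (adjusted p = 0.114, 0.114 and 0.0762). Without AVPV library 1, 2 or 3 it was 5.46, 7.07 and 7.42 points, each with exact permutation p = 0.0857 (adjusted p = 0.229, 0.229 and 0.152). Without arcuate library 1 or AVPV library 4 it was 7.46 and 7.54 points, with exact permutation p = 0.0571 (adjusted p = 0.229 and 0.114). Elements were found at 55.7% ± 2.85 of the sites in an arcuate library and 55% ± 3.55 in an AVPV library, a difference within the spread (SD, n = 4 each; exact permutation test, p = 0.857, adjusted p = 0.857). With lists of equal length it was 3.48 points, with exact permutation p = 0.0286 (adjusted p = 0.0571).

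**Figure D4:**
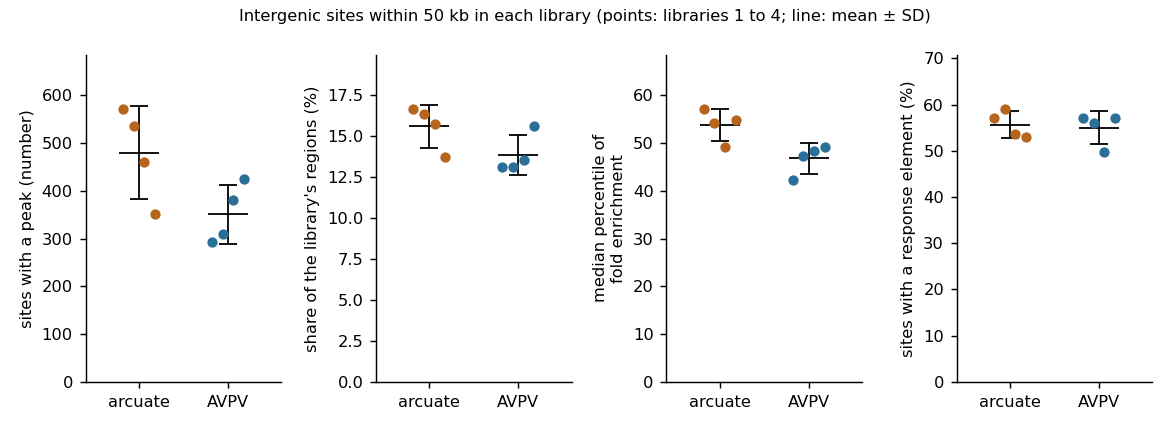
Number of the sites with a peak, their share of the library's regions in percent, their median percentile of fold enrichment and the percent with a response element, for each of the 4 arcuate and 4 AVPV libraries (points, libraries 1 to 4 from left to right), with the mean and SD. In each panel the points of the nuclei overlap, for example at 351 to 571 and 292 to 424 sites.

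The sites ranked lower than intronic, farther intergenic and promoter regions in the same lists. Their median percentile was lower than that of intronic regions, with a mean difference of -4.85 ± 3.24 points (SD, n = 8; exact sign-flip permutation test, two-sided, p = 0.0156, adjusted p = 0.0234), than that of farther intergenic regions, with -4.08 ± 2.77 points (exact permutation p = 0.0312, adjusted p = 0.0312) and than that of promoter regions, with -10 ± 6.53 points (exact permutation p = 0.0156, adjusted p = 0.0234). The direction was shown by 7, 6 and 7 of 8 libraries, and the medians were equal in the others. Without the 24 repeat-associated sites, the differences were -3.35 points (exact permutation p = 0.0781), -2.57 points (p = 0.0625, exact permutation) and -8.52 points (p = 0.0156, exact permutation), so only that with promoters stayed below the threshold (adjusted p = 0.0469). With arcuate library 2 or 3 left out, the difference from introns had exact permutation p = 0.0625 (-4.19 and -4.61 points). With arcuate library 2, AVPV library 1 or AVPV library 3 left out, the difference from farther intergenic regions had the same p, at -3.05, -3.64 and -2.66 points. The difference from promoters had an adjusted exact permutation p of 0.0625 without arcuate library 2.

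The 24 sites lay in clusters, mostly in repeats. Of these, 21 lay within 35.1 kb at the beginning of the assembled chromosome 9, from 3000219 to 3035278, nearest to the microRNA gene Mir101c, and 3 within 5.08 kb of chromosome 2, from 98662243 to 98667327, nearest to Gm33780. Their fold enrichments were 1.26 to 1.7, within the lowest 1.2% of their lists, they had peaks in 2 to 5 lists, and none held an element. All 21 windows on chromosome 9 were more than 80% repeat-masked in the reference, compared with 34 of all 783 sites (4.34%) and 1.1% of all regions. Without the 24 sites 759 remained, 53.5% with an element. The only gene other than Mir101c to be nearest to more than 5 sites was Gm52862 with 6, followed by Erdr1 with 5 and Gm34145 with 4. Erdr1 lies in the region shared by the sex chromosomes, 1 of its 5 sites was placed on chromosome Y in these female mice, and a further site on Y, near G530011O06Rik, had peaks in all 8 libraries, at percentiles of 1.52 to 61.9. A further 7 genes were nearest to 3 sites each, among them Cckar, Gm31836, Gm32130 and Gm33780.

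With these clusters included, another of the sites was within 10 kb of 94 (12%), and a region of any position within 10 kb of 121 (15.5%), against 10.9% of intronic and 6.88% of farther intergenic regions. The nearest gene had an ERα region at its own promoter at 34 sites (4.34%), beside 4.66% of all 39064 annotated genes. The nearest coding gene had one at 65 sites (8.3%), beside 7.3% of coding genes. In each pair the first share counts sites and the second counts genes, so they are not directly comparable and were not tested. Of the sites near Gm32130, the one on chromosome 16 from 95811001 to 95811644 had peaks in all 8 libraries, while its neighbours had peaks in 3 and 4.

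The strongest of the sites were high in every library of both nuclei. The site on chromosome 6 from 100059174 to 100060813, 2.01 kb upstream of the predicted gene Gm33243, was the highest by its lowest percentile (97.3). Fold enrichment was 30.6, 31.3, 22.8 and 25.3 across the arcuate libraries, in order, and 32.4, 38.2, 41.9 and 35.8 across those of the AVPV. Every AVPV value was above every arcuate value in fold enrichment, but the percentiles (97.3 to 99.1, and 98.8 to 99.4) overlapped, and only percentiles are compared across lists. The site on chromosome 5 from 149258806 to 149259747 lay 5.73 kb upstream of Alox5ap, which encodes a protein needed for leukotriene synthesis. It had fold enrichments of 31, 29.7, 31.7 and 27.8 in arcuate libraries, and of 17.4, 17.9, 27.8 and 23 in AVPV libraries, with percentiles of 98.2 to 99.1 and 94 to 97.8 that did not overlap. The site on chromosome 5 from 118458496 to 118459303, 3.15 kb upstream of Gm30746 and 101 kb upstream of Med13l, a subunit of the Mediator complex, ranked at 97.2 to 99.5 among arcuate peaks and at 91.4 to 93.2 among AVPV peaks. The other 7 of the first 10, near Gm32237, Gm30445, Gm26207, Tmem144, Gm41913, Gm29976 and Banf2os, had lowest percentiles of 82.8 to 91.7, and those near Gm26207 and Gm29976 held no element within 100 bp.

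**Figure D5:**
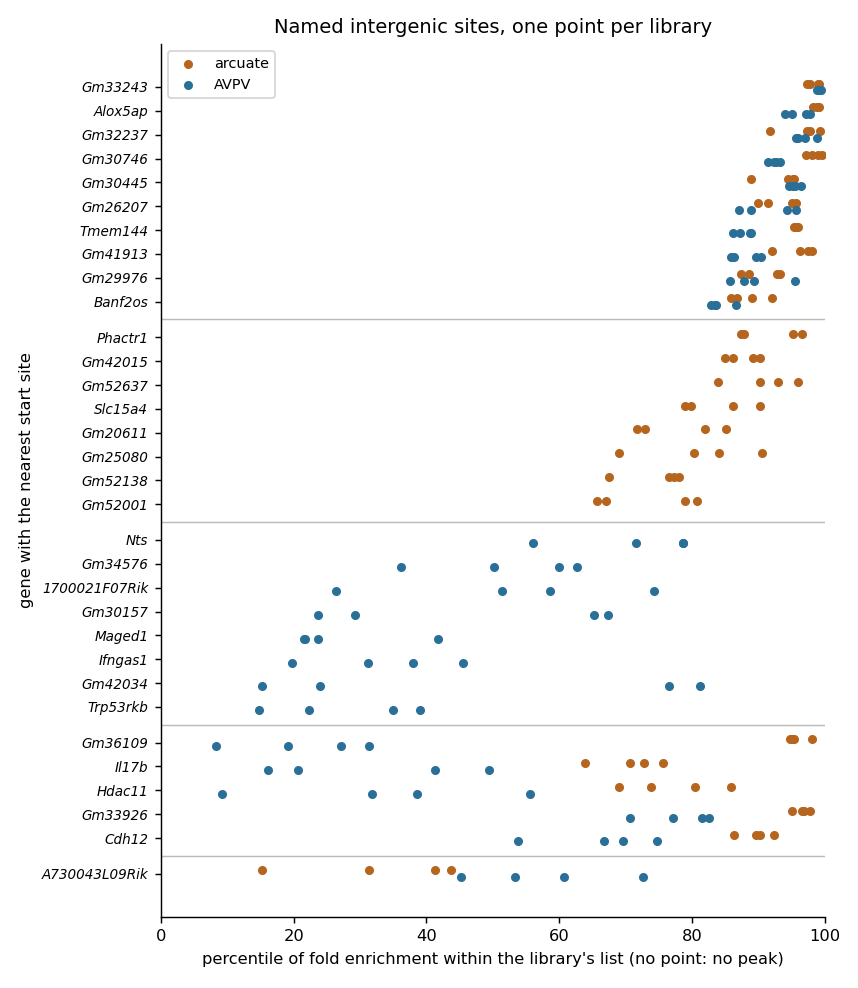
Percentile of fold enrichment in each library for the named sites, labelled by the gene with the nearest start site. From the top the blocks are the 10 strongest sites of all libraries, sites with peaks in 4 arcuate and 0 AVPV libraries, sites with peaks in 4 AVPV and 0 arcuate libraries, and sites of all 8 libraries with arcuate or AVPV percentiles higher throughout. Strong arcuate sites without an AVPV peak reach 96.5, while the first AVPV site, near Nts, lies between 56.1 and 78.7. These blocks hold the first 8 of 49 arcuate sites and of 14 AVPV sites, so their ranges are not comparable.

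At 49 sites (6.26%) all 4 arcuate libraries and no AVPV library had a peak, beside 3.64% of all 4722 regions, and at 14 sites (1.79%) the reverse held, beside 1.40%. Such a site has p = 0.0286 by Fisher's exact test, and none passed after adjustment over all regions (lowest adjusted p = 0.567). The unadjusted value is the smallest that this test allows with 4 against 4 libraries. No site could therefore pass unless most of the 4722 regions split in this way. Unadjusted, 63 of the sites and 238 of all regions were below 0.05. The count of 49 was 106 without arcuate library 4, which has the fewest of the sites in its nucleus, and the count of 14 was 22 without arcuate library 1, 25 without AVPV library 1 and 23 without AVPV library 3, where fewer libraries had to have a peak or to lack one.

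The strongest site of the arcuate alone lay on chromosome 13 from 42657014 to 42657481, 23.1 kb upstream of Phactr1, a regulator of protein phosphatase 1 and actin. Fold enrichment was 17.2, 18.3, 12 and 10.8 across the arcuate libraries, at percentiles of 95.2, 96.5, 87.8 and 87.3, and it held no element. The site on chromosome 5 from 118812886 to 118813481, 30.1 kb downstream of Gm42015, had fold enrichments of 10.8, 11.8, 13 and 10.5. With Med13l as its nearest coding gene (252 kb), it shares that neighbour with the site near Gm30746 called in all libraries. The site near Slc15a4, which encodes a lysosomal transporter of histidine and peptides, lay on chromosome 5 from 127585026 to 127585407 and had fold enrichments of 9.24, 8.88, 13 and 10.5. The remaining 5 of the first 8, near Gm52637, Gm20611, Gm25080, Gm52138 and Gm52001, had lowest percentiles of 65.7 to 83.9.

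The strongest site of the AVPV alone lay 34.4 kb downstream of Nts, the gene of the peptide transmitter neurotensin, on chromosome 10 from 102455694 to 102456152. Fold enrichment was 8.63, 6.65, 9.39 and 9.93 across the AVPV libraries, at percentiles of 71.5, 56.1, 78.7 and 78.7. The other 7 of the first 8, near Gm34576, 1700021F07Rik, Gm30157, Maged1, Ifngas1, Gm42034 and Trp53rkb, had lowest percentiles of 14.7 to 36.2, below those of the 8 arcuate sites. The sets are the first 8 of 14 AVPV sites and of 49 arcuate sites, ranked by that same percentile, so their ranges are not comparable. Elements were found at 5 of the 8 arcuate sites and 6 of the 8 AVPV sites named, and over all such sites at 27 of 49 (55.1%) and 10 of 14 (71.4%, 95% Wilson interval 45.4 to 88.3).

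Of the 115 sites with peaks in all libraries, 26 (22.6%) had every arcuate percentile above every AVPV percentile, beside 14.2% of the 1089 regions with peaks in all lists, and 1 (0.87%) had the reverse, beside 6.80%. The shares were not tested against each other. None passed after adjustment over the 1089 regions (exact permutation test, lowest adjusted p = 0.136), while 27 of the sites and 229 of all those regions had p = 0.0286 unadjusted (exact permutation test). The unadjusted value is again the smallest possible, so none could pass unless most of the 1089 regions separated completely. With lists cut to equal length the counts were 17 and 4, and without arcuate library 1, 3 or 4 or AVPV library 1 or 2 the single site became 4, 3, 3, 3 and 2.

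The largest gap was at the site on chromosome 11 from 48760020 to 48760594, 39.1 kb downstream of Gm36109 and 40.1 kb upstream of Rack1, the gene of a ribosome-bound scaffold protein. Arcuate percentiles were 98.1, 94.7, 95.4 and 95 and AVPV percentiles 27.1, 8.36, 19.2 and 31.3, with fold enrichments of 15.5 to 24.9 and 4.09 to 5.37. No element lay within 100 bp of its summit. At the site 26.6 kb upstream of Cdh12, a cadherin of neurons, on chromosome 15 from 20421987 to 20422510, percentiles were 92.3, 89.7, 86.3 and 90.3 in the arcuate and 66.7, 69.6, 53.8 and 74.7 in the AVPV. Sites near Il17b, a cytokine gene, Hdac11, a histone deacetylase gene, and Gm33926 had gaps of 14.4, 13.4 and 12.5 points. The only site ranked higher in the AVPV, 12.4 kb upstream of A730043L09Rik on chromosome 9 from 62256268 to 62256775, ranked at 15.3 to 43.7 among arcuate peaks and at 45.2 to 72.6 among AVPV peaks, a gap of 1.58 points.

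Gene lists of hypothalamic and estrogen biology were looked up among the nearest starts. Of all 21774 protein-coding genes, 259 (1.19%) were nearest to a site. Among 40 hypothalamic peptide genes there were 2 (5%), Pomc and Nts, and among 40 peptide and hormone receptor genes 3 (7.5%), Prlr, Oxtr and Cckar. Among 30 estrogen targets of breast and uterus there was 1 (3.33%), Fos, and among 30 activity-induced genes 3 (10%), Fos, Fosb and Nr4a1. Six3, Scn2a and Cdh12 were the 1 gene each of 40 (2.5%) of the homeobox and hypothalamic transcription factors, the ion channels and the axon guidance and adhesion genes. None of 40 glutamate and GABA receptor genes and none of 40 growth factor and Wnt genes was nearest to a site. The lists were not tested against other genes.

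Pomc encodes the precursor of melanocortins and β-endorphin in arcuate neurons. A site 12.8 kb upstream of it, on chromosome 12 from 3941942 to 3942323, had a peak in the arcuate libraries but none in the AVPV libraries, with fold enrichments of 5, 6.72, 5.86 and 3.32 and percentiles of 27, 60.5, 45 and 2.55. Its rank thus ranged from low to above the middle of a list, lowest in library 4, and it held no element. Together with the site near Nts, both peptide genes had sites with peaks in all libraries of 1 nucleus and none of the other, in opposite nuclei.

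Among the receptors, the site 25.8 kb upstream of Oxtr, the oxytocin receptor gene, on chromosome 6 from 112516659 to 112517044, had arcuate percentiles of 80.3, 83.2, 65.7 and 69 and a peak in AVPV library 4 alone, at 16.1. The site 42.4 kb upstream of Prlr, the prolactin receptor gene, had peaks in 3 arcuate libraries (67.5 to 76.4) and 4 AVPV libraries (53.4 to 83.2), and the nuclei overlapped. Cckar, the gene of cholecystokinin receptor A, had 3 sites, and they were called differently. The nearest, 4.27 kb upstream on chromosome 5 from 53711755 to 53712195, had peaks in AVPV libraries only, with fold enrichments of 4.87, 6.63, 3.76 and 11.9. The site 7.14 kb upstream had peaks in 3 arcuate libraries and 1 AVPV library, and the site 27 kb upstream in 2 of each.

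The AP-1 genes Fos and Fosb, which are induced by neuronal activity, had a site in all 8 libraries each. That at 12 kb downstream of the Fos start had percentiles of 76.8, 89.4, 64.5 and 71.3 in the arcuate and 47.8, 54.2, 51.1 and 77.5 in the AVPV, which overlapped through AVPV library 4. That at 9.78 kb upstream of Fosb had 58.9, 80.2, 17.3 and 52.6 in the arcuate and 0.275, 38.2, 2.7 and 1.77 in the AVPV, which overlapped through AVPV library 2. Nr4a1, a nuclear receptor gene also induced by activity, had a site 5.74 kb upstream with peaks in 2 arcuate libraries and no AVPV library, and with an element of 2 mismatches. The site 28.8 kb upstream of Six3, a forebrain homeobox gene, had peaks in 4 arcuate libraries, at percentiles of 14.8 to 71.5, and in AVPV library 1, at 4.37. The site 4.39 kb upstream of Scn2a, a neuronal sodium channel gene, had percentiles of 80.5, 90.9, 88.7 and 95.1 in the AVPV libraries, and of 79 and 54.2 in arcuate libraries 1 and 2, the others having no peak.

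When a site was assigned instead to its nearest protein-coding start, at any distance, 2.98% of coding genes were reached. The peptide list then had 3 genes (7.5%). Of the genes added to the lists this way, only Inhbb, Prok2 and Klf10 had the site within 50 kb, and they are named after their values were seen. The site 9.67 kb from Inhbb, the gene of the inhibin βB subunit, had peaks in 4 arcuate and 0 AVPV libraries and an element of 2 mismatches. That 8.49 kb from Prok2, a peptide gene, had peaks in 3 arcuate and 0 AVPV libraries, and that 24.6 kb from Klf10 in all 8.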

How the data were processed

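ERα ChIP-seq was measured in 4 arcuate and 4 AVPV libraries, grouped by the sample labels. The pooled input libraries were not used here. The authors aligned 75-nt reads to mm10 with Bowtie2 2.5.0 and called peaks in each library with MACS2 2.2.7.1. For every peak the deposited list holds a fold enrichment, which is a ratio to local background, and p-value and q-value columns as -log10. Fold enrichments were turned into percentiles within each list. Read counts were not analysed, so the lists give no depth. The number of peaks per list (2367 to 4079) limits which sites can be called, and intervals cover counting error only.

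All 25982 peaks, none of them identical between lists, were merged at 1 bp overlap into 8072 regions. Centres were annotated with 121769 RefSeq transcripts of GRCm38.p6, predicted ones included, whose chromosome lengths hold every peak. Promoters reached 1 kb upstream and 100 bp downstream of a start. With the 45756 curated transcripts alone there were 687 sites, 531 of them shared. Tests were exact permutations over libraries, sign-flip tests over 8 libraries and Fisher's exact tests, adjusted by Benjamini-Hochberg.

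The members, gene lists and rules were chosen with earlier results of these data known. Named sites were the 10 strongest of 8 lists, by lowest percentile, the first 8 per nucleus with 4 peaks against 0, the 5 per direction with the largest gap between percentiles (1 existed for the AVPV), sites nearest to a listed gene, the 8 genes nearest to the most sites and the sites at the limits of the definition. Sequences are printed for some sites of the first 3 kinds that hold an element. Results for some genes and for the list of nuclear receptors and coregulators are not reported here.

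Alternatives were a stricter q-value, 3 lists, joined summits, a 20 kb limit, curated transcripts, equal lists, autosomes, other element limits, -log10 p ranks, leaving out each library and a replicate block. Leaving out repeat-masked windows or the repeat clusters was added after seeing the data. Libraries of equal replicate number were not treated as pairs outside the replicate block. Their deviations from the nucleus means correlated at 0.0353, 0.148, 0.0294 and -0.114 over 115 sites. Such values cannot show whether these libraries shared a pool or a batch. The searches and tests were tested on simulated data. Python 3.11.15, numpy 2.4.6, scipy 1.17.1, pandas 2.3.3, pysam 0.24.0, matplotlib 3.10.9 and samtools 1.23.1 were used.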

Additional observations from a re-analysis of the deposited data

Results flagged for a closer look

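In groups of 4 libraries, 5 of 62 groups of values checked had a library set apart from the other 3 by Dixon's criterion, which chance gives in about 1 of 20 groups. AVPV library 4 had 15.6% of its regions among the sites, against 13.1% to 13.5% in the others. AVPV library 3 had elements at 49.7% of its sites, against 56% to 57.2%. At the site near Gm30445, arcuate library 4 stood at percentile 88.9, against 94.4 to 95.4. At the site near Gm52138, arcuate library 1 stood at 67.5, against 76.5 to 78.1. At the site near Maged1, AVPV library 2 stood at 41.7, against 21.6 to 23.7.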

How the results depend on the processing

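Over the alternatives, 16 results were recomputed, and 228 of 290 values kept their direction and side of the threshold (for counts, stayed within 1.5 times). The number of sites per library, their share and the contrasts of elements and strength with promoters did so throughout. For differences between nuclei and in strength, this is judged by the unadjusted p. With adjustment over each family, no difference between nuclei passed under any alternative, and the strength contrast with promoters did not without arcuate library 2 (adjusted exact permutation p = 0.0625). For the nuclei the design largely set this, as a single measure at the smallest exact permutation p (0.0286) cannot pass over 4 measures. With a replicate block the smallest exact sign-flip p is 0.125, so no difference could pass.

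The arcuate minus AVPV difference in median percentile had an unadjusted exact permutation p = 0.0286 (adjusted p = 0.0571 with equal lists and 0.114 in the others) at 9.53 points with 3 lists, 8.52 with joined summits, 7.76 with 20 kb, 6.24 with equal lists, 7.51 on autosomes, 8.76 without repeat-masked windows and 8.65 without the repeat clusters. It had exact permutation p = 0.0571 at 8.21 points with the stricter q-value, 8.41 with curated transcripts and 8.11 by -log10 p. Leaving out a library gave 5.46 to 10.1 points, with exact permutation p from 0.0286 to 0.0857. The difference in elements between nuclei was -0.333 points with 20 kb, -1.88 with at most 1 mismatch and 3.48 with equal lists (exact permutation p = 0.0286, adjusted p = 0.0571; -0.852 to 1.75 leaving out a library). Sites with 4 arcuate and 0 AVPV peaks were 30 with 20 kb (47 without repeat-masked windows, 49 to 106 leaving out a library), and the reverse 9 with joined summits (14 to 25). With equal lists, 17 sites ranked higher in the arcuate and 4 in the AVPV. The latter were 4 with curated transcripts and 0 by -log10 p (1 to 4 leaving out a library).

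The single-nucleus contrast with introns lost its call at 2.42 points (joined summits), 3.1 (20 kb), 3.63 (curated), 3.72 (autosomes) and 3.96 (repeat-masked windows left out), and that with farther intergenic regions at 5.91, 1.82, 1.67, 6.26 and 6.26 (3.98 to 7.53 and 6.27 to 8.48 leaving out a library). The element contrast with farther intergenic regions lost its call at -6.56 points (stricter q), -5.65 (20 kb), -5.56 (equal lists), -3.99 (1 mismatch), -5.5 (repeat-masked windows) and -5.43 (repeat clusters), with -9.95 to -6.49 leaving out a library. That with introns turned at -2.28 (curated) and -0.537 (within 50 bp). The strength contrasts with introns and farther intergenic regions lost their calls at -2.4 and -0.998 points (equal lists), -3.47 and -2.66 (repeat-masked windows) and -3.35 and -2.57 (repeat clusters), with -5.75 to -3.43 and -5.31 to -2.66 leaving out a library. The cause of these changes was not tested. By construction, the 20 kb limit leaves fewer sites, and leaving out a library leaves fewer lists to satisfy.

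With a replicate block, the exact sign-flip permutation p-values for the paired differences were 0.25 for the share of sites (1.72 points) and for their number (128), 1.0 for elements (0.705 points) and 0.125 for the median percentile (7 points), where 0.125 is the smallest that 4 pairs allow. Lists without read counts limit all of these to called peaks.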
